A study of Mus musculus with 4 samples.

Results

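Foxa2, Sox17, Gsc, Cer1, Foxa1, Gata4, Gata6, Hhex, Cxcr4 and Lhx1, the factors by which developmental biologists recognise the anterior primitive streak and the endoderm that leaves it, were followed across 4 RNA-seq libraries of mouse pluripotent cells. The 10 genes were taken by name from the 37620 genes of the raw table, and all 10 were among the 15462 genes that passed the authors' filter on low expression. The cells were R1 mouse embryonic stem cells (ESCs), a line of 129/Sv strain. Cripto, encoded by Tdgf1, is a membrane-anchored co-receptor for the ligand Nodal, and the study asked how ESCs and their conversion to epiblast stem cells (EpiSCs) proceed without it. WT cells and cells with Cripto knocked out (Cripto KO) were each sampled as ESCs in serum/LIF, and after 6 days in N2B27 medium with Activin A at 20 ng per ml and bFGF (F/A), the condition that generates EpiSCs. Both genotypes therefore received Activin A, a ligand of the Nodal branch that does not need Cripto at its receptors. Which of the study's Cripto KO clones was sequenced is not given in the sources used here. Each of the 4 conditions is 1 library, so no difference below has a replicate check within these data. No p-value is given, and every interval covers counting error only. From this same RNA-seq, and by qPCR in independent Cripto KO clones, the study reported Foxa2, Sox17 and Cer1 to be lower in F/A. By immunofluorescence it also reported fewer Foxa2-positive and Sox17-positive cells in F/A Cripto KO. Overexpressed Cripto cDNA was reported to restore the expression of EpiSC markers.

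In the gastrulating mouse embryo, strong Nodal signalling at the front of the primitive streak turns on the T-box gene Eomes and then a set of homeobox, forkhead and Sox genes in cells that become definitive endoderm, prechordal plate and node. Lhx1, Gsc and Foxa2 mark the front of the streak and the axial mesendoderm, whereas Sox17, Hhex and Cxcr4 rise as definitive endoderm forms. Several of these genes are also used by the extraembryonic endoderm, and Gata4 and Gata6 are shared with primitive endoderm and with heart mesoderm. EpiSCs resemble the epiblast on the eve of gastrulation and usually transcribe some of these genes.

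Raw counts on genes summed to between 15230856 and 17315442 in the 4 libraries. An odd count was found for 3 of 18700 detected genes in the Cripto KO library of F/A, so its counts were halved in every interval and its detection limit was set at 6 counts, against 3 elsewhere. Raw counts of Tdgf1 itself were 1572 (WT) and 86 (Cripto KO) for F/A, and 18714 (WT) and 945 (Cripto KO) for serum/LIF. All 10 naive pluripotency genes kept by the filter were at least 2-fold down in F/A, in WT and again in Cripto KO. Of the EpiSC markers, Fgf5 rose in WT from 3 raw counts to 2206, while Pou3f1 stayed at 15 raw counts or fewer in every library. Otx2, another EpiSC marker, went from 1307 raw counts in serum/LIF to 2375 in F/A in WT, and from 1023 to 678 in Cripto KO.

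On NCBIM37 the genes lie on chromosomes 1 (Sox17 and Cxcr4), 2 (Foxa2), 4 (Cer1), 11 (Lhx1), 12 (Gsc and Foxa1), 14 (Gata4), 18 (Gata6) and 19 (Hhex). In serum/LIF most of them were close to silent. Levels are given here as raw counts scaled to the library total and to the transcript length in kilobases (cpm per kb), which allows genes to be compared. Cxcr4, the receptor for the chemokine Cxcl12, was at 2.56 cpm per kb in WT and 2.32 in Cripto KO. The homeobox gene Hhex was at 2.46 and 2.21 cpm per kb, and the zinc-finger factor Gata4 at 1.95 and 1.53. These 3 levels overlapped in their counting intervals within each genotype. None of the other 7 genes passed 0.461 cpm per kb in either genotype, and Lhx1 and Cer1 had no more than 2 raw counts.

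**Figure D1:**
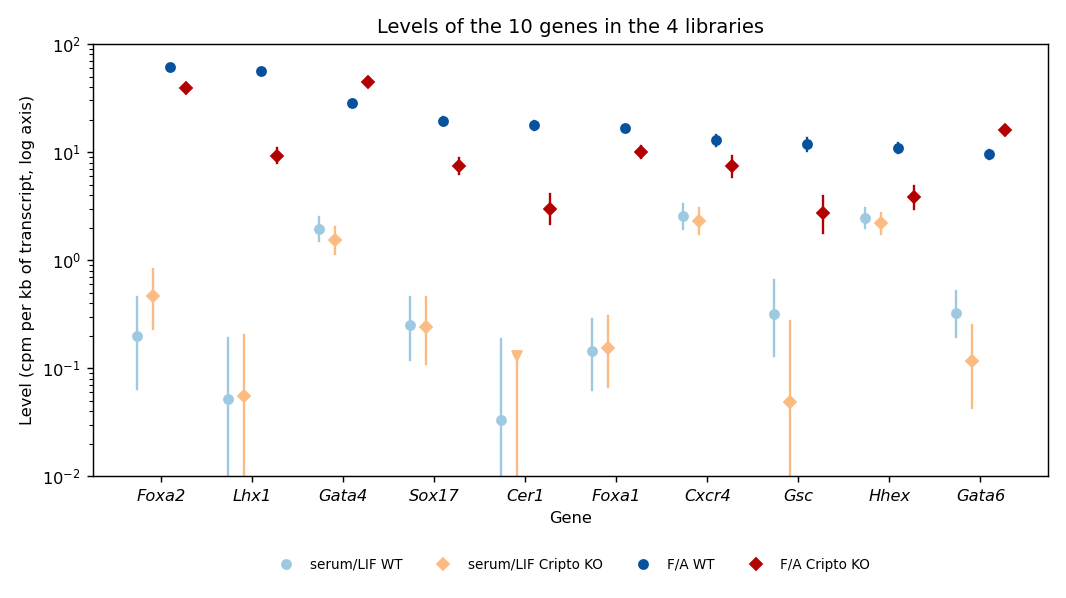
Level of each gene, in cpm per kb of transcript on a log axis, in serum/LIF WT, serum/LIF Cripto KO, F/A WT and F/A Cripto KO; vertical lines are 95% Poisson intervals of 1 library each, cut at the lower edge of the axis, and the triangle is the upper limit for Cer1 in serum/LIF Cripto KO, where it had 0 counts. Every gene sits higher in F/A than in serum/LIF, and in F/A the Cripto KO point lies below the WT point for 8 genes and above it for Gata4 and Gata6.

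In WT cells, 6 days of F/A raised all of these genes. On the scale of the authors' quantile-normalized values, 10 of 10 were at least 2-fold up in F/A, compared with 22.1% of all genes kept. The median log2 change of the 10 genes was 5.95, beside -0.07 over all genes kept. Lhx1, a LIM-homeobox gene needed for head formation, went from 2 raw counts to 1909, a ratio of 1571 with a 95% interval of 434 to 12985. Cer1, a secreted antagonist of Nodal, BMP and Wnt ligands, went from 1 raw count to 467, a ratio of 649 (116 to 25688). Foxa2, a forkhead factor of the node, notochord and endoderm, went from 5 raw counts to 1360, a ratio of 371 (158 to 1144). For Lhx1 and Cer1 the serum/LIF level rests on 1 or 2 reads, and the intervals are correspondingly wide.

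The other 7 genes also rose past 2-fold, with smaller log2 changes. The forkhead gene Foxa1 changed by 7.04 on the log2 scale, from 8 raw counts to 814. Sox17, an HMG-box factor of endoderm, changed by 6.50, from 10 raw counts to 688. Gsc, the goosecoid homeobox gene of the organizer, changed by 5.40, from 7 raw counts to 227. The GATA pair started from more raw counts. Per length, Gata6 was level with Gsc in serum/LIF WT, at 0.325 and 0.320 cpm per kb with overlapping intervals. The intervals of the changes of Gata6 and Gsc overlapped too. Gata6 changed by 5.04, from 18 raw counts to 465, and Gata4 by 3.88, from 65 raw counts to 831. Cxcr4 and Hhex were lowest in the list, with log2 changes of 2.37 and 2.14.

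Per length, Foxa2 and Lhx1 were the most abundant of the 10 transcripts in F/A WT, at 60.8 cpm per kb (95% interval 57.7 to 64.2) and 56.7 cpm per kb (54.2 to 59.3). Their intervals overlapped, and both lay clear above Gata4 at 28.3 cpm per kb. Sox17, Cer1 and Foxa1 formed the next group, at 19.5, 17.6 and 16.8 cpm per kb, where each gene overlapped its neighbour. Cxcr4, Gsc, Hhex and Gata6 closed the order between 12.9 and 9.56 cpm per kb, again with overlapping neighbours.

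Without Cripto the F/A library held less RNA of 8 of these 10 genes, and more of the GATA pair, than counting error accounts for. The normalized value was between 6.14-fold (Lhx1) and 1.55-fold (Foxa2) lower for the 8, and 1.61-fold (Gata4) and 1.65-fold (Gata6) higher for the pair. At the 2-fold threshold 5 of 10 genes were lower in Cripto KO, compared with 4.80% of all genes kept, and 0 of 10 were higher, compared with 3.91%. The counting interval of the ratio lay below 1 for 8 genes (24.3% of all genes kept) and above 1 for 2 (26.0%). The median log2 ratio of the 10 genes was -1.07, beside 0 over all genes kept. In these bulk libraries fewer cells that express a gene and less RNA per cell cannot be told apart.

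Lhx1 and Cer1 had the lowest ratios of the set. Raw counts of Lhx1 were 1909 in WT against 322 in Cripto KO, which gave a ratio of 0.163 (95% interval 0.138 to 0.191) and a log2 ratio of -2.62. Those of Cer1 were 467 against 82, a ratio of 0.176 (0.125 to 0.243) and a log2 ratio of -2.50. Both were high in 1 library, that of WT cells in F/A, intermediate in its Cripto KO counterpart and near 0 in serum/LIF. Of all genes kept, 0.666% had a ratio as low as that of Lhx1 or lower, and 0.931% as low as that of Cer1.

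The 250 bases upstream of the RefSeq start are printed for these 2 genes because they fell furthest and each was the other's nearest in pattern within the set. Both windows come from the RefSeq promoter table on GRCm38.p6, and each matched 1 place in NCBIM37, the build of the count tables. The Cer1 window is chr4:82531056-82531305 on the minus strand, next to the annotated gene, which runs from 82527655 to 82531052. The Lhx1 window is chr11:84339037-84339286 on the minus strand, upstream of a gene that runs from 84331479 to 84338923. Capitals mark matches, on either strand, to a LIM class homeodomain motif (TAATTA) or a forkhead motif (TGTTTNC).
Cer1: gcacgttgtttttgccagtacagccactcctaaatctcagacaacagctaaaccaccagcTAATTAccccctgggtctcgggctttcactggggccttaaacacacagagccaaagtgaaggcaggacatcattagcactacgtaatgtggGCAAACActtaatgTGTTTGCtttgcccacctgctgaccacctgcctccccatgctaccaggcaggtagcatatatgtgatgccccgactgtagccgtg
Lhx1: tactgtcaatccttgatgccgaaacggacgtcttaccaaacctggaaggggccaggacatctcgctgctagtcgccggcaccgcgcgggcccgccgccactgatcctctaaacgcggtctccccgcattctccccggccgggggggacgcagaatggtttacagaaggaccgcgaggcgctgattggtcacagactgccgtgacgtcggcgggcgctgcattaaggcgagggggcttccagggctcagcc

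The Cer1 window holds TAATTA from base 190 before the start, and forkhead matches from bases 99 and 85, one on each strand, none of which overlap. The Lhx1 window holds neither motif. The RefSeq table has 9 windows for 7 of the 10 genes (Cer1, Cxcr4, Foxa1, Foxa2, Gsc, Hhex and Lhx1). The forkhead motif is in 3 of these 9 windows, those of Cer1, Cxcr4 and Foxa1, and in 17.8% of all 32851 windows of that length. The LIM class motif is in the Cer1 window alone of the 9 and in 4.84% of all windows, and a GATA motif (AGATAA) is in 1 of the 9, of Foxa2, and in 9.99% of all. Motifs of bicoid class homeodomain (TAATCC), FoxH1 (AATNCACA), Sox (ACAATAG), T-box (AGGTGTGA) and Smad (GTCTAGAC) factors, searched on both strands, match 0 of the 9 windows and 6.25%, 3.18%, 2.08%, 1.12% and 0.167% of all windows. A match is a description of letters and no evidence of binding.

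The other homeobox genes of the set fell next. Raw counts of Gsc were 227 in WT against 54 in Cripto KO, a ratio of 0.251 (0.162 to 0.375) and a log2 ratio of -1.99. Hhex, which acts in the anterior endoderm and later in liver and blood vessels, had 369 against 134, a ratio of 0.352 (0.267 to 0.457) and a log2 ratio of -1.51. Hhex in F/A Cripto KO stood little above its serum/LIF counts of 95 in WT and 80 in Cripto KO.

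Among the endoderm transcription factors the Sox gene fell past 2-fold and the forkhead genes did not. Raw counts of Sox17 were 688 in WT against 270 in Cripto KO, a ratio of 0.385 (0.317 to 0.463) and a log2 ratio of -1.38. Foxa2 had 1360 against 900, a ratio of 0.645 (0.579 to 0.718) and a log2 ratio of -0.63, and was still a highly transcribed gene of the set. Foxa1 had 814 against 506, a ratio of 0.604 (0.522 to 0.696) and a log2 ratio of -0.73. The intervals of the 2 forkhead ratios overlapped each other and lay above that of Sox17. Cxcr4, a surface receptor often used to sort definitive endoderm, had 265 raw counts against 158, a ratio of 0.588 (0.452 to 0.759) and a log2 ratio of -0.77. The receptor's interval overlapped those of both forkhead genes and, at its lower end, that of Sox17.

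The GATA factors had ratios above 1. Raw counts of Gata4 were 831 in WT against 1356 in Cripto KO, a ratio of 1.61 (1.46 to 1.79) and a log2 ratio of 0.69. Gata6 had 465 against 798, a ratio of 1.65 (1.44 to 1.89) and a log2 ratio of 0.72. Of the 4 libraries both were highest in Cripto KO cells kept in F/A, and neither ratio passed 2-fold. Gata6 overlaps a lincRNA on the opposite strand, 1010001N08Rik, with 7 raw counts in WT against 38 in Cripto KO, and whether the counting used strand is not given in the sources used here.

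**Figure D2:**
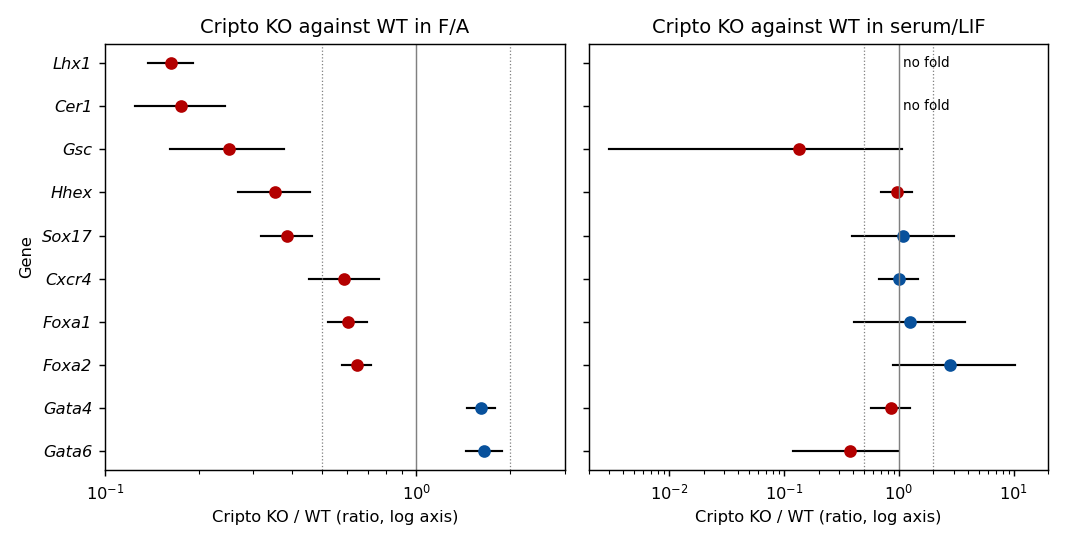
Ratio of Cripto KO to WT for each gene on a log axis, in F/A (left) and in serum/LIF (right); points are ratios of normalized values between 2 libraries, lines are 95% counting intervals, dotted lines mark 2-fold, and "no fold" marks genes with too few counts in both libraries. In F/A the ratios run from 0.163 for Lhx1 to 1.65 for Gata6 with narrow intervals, whereas in serum/LIF every interval drawn except that of Gata6 includes 1.

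These shifts reordered the set within F/A. Gata4 led in F/A Cripto KO, at 44.7 cpm per kb (41.4 to 48.2), with Foxa2 at 39.0 (35.4 to 42.7), and their intervals overlapped. Gata6, last in F/A WT, came next at 15.9 cpm per kb. Lhx1 moved from a level beside Foxa2 to 9.25 cpm per kb, where its interval overlapped those of Foxa1 at 10.1 and Cxcr4 at 7.42. Sox17 was at 7.39 cpm per kb. Hhex, Cer1 and Gsc, at 3.82, 3.0 and 2.71 cpm per kb, made up the low end.

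Within F/A the proportions of some pairs, chosen after their values were seen, were compared between the genotypes. Per length, Foxa2 RNA was 3.63 times that of Foxa1 in F/A WT (3.33 to 3.96) and 3.86 times in F/A Cripto KO (3.31 to 4.53). Gata4 RNA was 2.96 times that of Gata6 in F/A WT (2.64 to 3.33) and 2.82 times in F/A Cripto KO (2.49 to 3.20). For both pairs the intervals of the 2 genotypes overlapped. For the pairs across families the intervals of the 2 genotypes did not overlap. Both outcomes follow from the Cripto KO to WT ratios given above, alike within the first pairs and unlike in the others. They are no separate result. The ratio of Lhx1 to Foxa2 was 0.932 in F/A WT (0.869 to 1.0) and 0.238 in F/A Cripto KO (0.197 to 0.285). The ratio of Gata4 to Foxa2 was 0.465 (0.426 to 0.508) and 1.15 (1.02 to 1.3), and that of Gata6 to Sox17 was 0.491 (0.436 to 0.553) and 2.15 (1.76 to 2.63). The GATA gene was the lesser of both of these pairs in WT and the greater in Cripto KO.

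Cripto KO cells, too, raised most of the set between serum/LIF and F/A. In Cripto KO 9 of 10 genes were at least 2-fold higher in F/A, compared with 19.8% of all genes kept, and the median log2 change was 6.14, beside -0.07 over all genes kept. Hhex was the exception, with a ratio of 1.63 (1.16 to 2.28). Cer1 had 0 raw counts in serum/LIF Cripto KO and 82 in F/A Cripto KO, at least 28.6-fold higher against a limit of 3 counts in that serum/LIF library, with 22.2-fold at the lower end of the counting interval. Lhx1 changed by 7.32 on the log2 scale, from 2 raw counts to 322, Foxa2 by 6.42, Foxa1 by 6.01 and Sox17 by 4.99. Gata6 changed by 7.18, from 6 raw counts to 798, and Gata4 by 4.80, from 48 to 1356. Gsc changed by 6.28, from 1 raw count to 54, and Cxcr4 by 1.61.

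**Figure D3:**
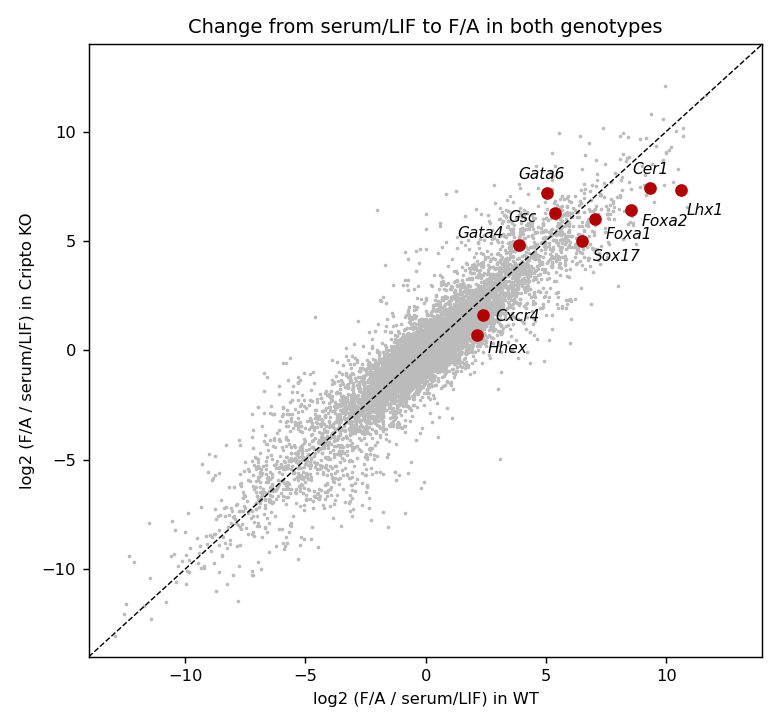
Log2 ratio of F/A to serum/LIF in WT (horizontal) and in Cripto KO (vertical) for all 15462 genes kept (grey) and the 10 genes (red), with 0 replaced by 0.5 and the dashed line marking equal change. All 10 genes lie right of and above 0; 7 are drawn below the line, among them Lhx1 (10.62 in WT and 7.32 in Cripto KO) and Cer1, whose height is set by the replaced 0, and Gata4, Gata6 and Gsc lie above it.

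The value of the change in Cripto KO was smaller than in WT for 6 genes. Among these, the counting intervals of the 2 genotypes were separate for Hhex alone. They overlapped for Lhx1, Foxa2, Sox17, Foxa1 and Cxcr4, so counting did not resolve a smaller change for those genes. The difference of the log2 changes, Cripto KO minus WT, was -3.30 for Lhx1, -2.12 for Foxa2, -1.51 for Sox17, -1.44 for Hhex, -1.04 for Foxa1 and -0.77 for Cxcr4. For Cer1 it was -1.92 with the 0 of serum/LIF Cripto KO replaced by 0.5, and its direction cannot be given, since its change in Cripto KO is known only as a lower bound. It was positive for Gata6 at 2.15, for Gata4 at 0.92 and for Gsc at 0.88. Among the genes with positive values, the counting intervals of the 2 genotypes were separate for Gata6 and Gata4 and overlapped for Gsc. The median difference over the 10 genes was -1.24, beside 0.00 over all genes kept. The positive value of Gsc rests on 7 raw counts against 1 in serum/LIF, and with 5 added to every normalized value it was -1.04. The same addition gave 1.63 for Gata6, 0.89 for Gata4, -2.76 for Lhx1, -2.24 for Cer1 and -1.45 for Foxa2. The value of Foxa2 rests in part on 5 raw counts in WT and 11 in Cripto KO in serum/LIF. None of these differences was tested, since each comes from 4 single libraries.

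Between the 2 serum/LIF libraries the set differed little that counting could resolve. Of the 10 genes, 1 was at least 2-fold higher in Cripto KO, compared with 2.46% of all genes kept, and 2 were at least 2-fold lower, compared with 2.43%. Foxa2 had 5 raw counts in WT and 11 in Cripto KO (ratio 2.8, 0.897 to 10.3). Gsc had 7 and 1 (ratio 0.136, 0.00303 to 1.06). Gata6 had 18 and 6 (ratio 0.373, 0.121 to 0.981), the only interval of the set that lay on one side of 1, compared with 20.4% of all genes kept below 1 and 20.1% above it. All 3 calls rest on at most 18 reads, and with 5 added to every normalized value 0 genes passed 2-fold. The genes with more reads were near equality. Hhex had 95 and 80 raw counts (ratio 0.954, 0.700 to 1.3), Cxcr4 60 and 51 (ratio 1.0, 0.675 to 1.48) and Gata4 65 and 48 (ratio 0.856, 0.577 to 1.26). At these depths a difference under about the width of such intervals was not detectable.

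The pattern of each gene over the 4 libraries was set beside that of all 10811 genes kept with at least 200 raw counts in a library, by the Euclidean distance of centred log2 values. Lhx1 and Cer1 were nearest to each other within the set, at a distance of 1.07 log2 units. Among all genes, the nearest neighbour of Lhx1 was Cer1, whereas that of Cer1 was not Lhx1. After Lgr5, a Wnt-responsive receptor, at 0.88, and Gm626 at 0.89, Lhx1 was the next nearest to Cer1. Foxa1 and Sox17 were each other's nearest within the set, at 0.92, as were Hhex and Cxcr4, at 0.77. Among all genes, Sox17 was nearest to the VEGF receptor gene Flt1, at 0.27, Foxa1 to Greb1l, at 0.18, Foxa2 to Slc39a8, a metal transporter, at 0.43, and Hhex to Srgap1, at 0.18. Gsc was nearest to A530084C06Rik, at 0.46, then to Pkd1l1, a channel-like gene of the node, at 1.34. Gata4 was nearest to Mfap4, at 0.22, and Gata6 to the cardiac myosin gene Myh7, at 0.49, then to the keratin gene Krt19, at 0.54. Cxcr4 had the closest partners of the set, Ifi35 and Adamts9 at 0.06 each. Each distance is over 4 points, and for most of the set the serum/LIF points rest on a few reads.

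Of 21 genes of the Nodal and Activin pathway that were kept, 6 were at least 2-fold lower when Cripto KO was set against WT in F/A and 0 were higher, with a median log2 ratio of -0.37. They were Tdgf1, which was knocked out by design, Eomes, Mixl1, Lefty1, Lefty2 and, on few counts, Inhba. Of all genes kept, 4.80% were lower and 3.91% higher in F/A, the shares to set beside the other lists too. In serum/LIF 4 genes of the list were higher and 2 lower, Tdgf1 among the latter, with a median of 0.19. The shares of all genes kept there were 2.46% higher and 2.43% lower. The Nodal antagonists Lefty1 and Lefty2 were higher there in Cripto KO, with ratios of 3.52 (3.23 to 3.84) and 2.96 (2.66 to 3.31), and lower in F/A, at 0.309 (0.263 to 0.360) and 0.403 (0.328 to 0.492). The Activin subunit gene Inhbb had 7 raw counts in WT and 6 in Cripto KO in F/A. Genes named in this and the next paragraphs outside the naming rule were chosen after their values were seen. Eomes, the T-box factor that acts before several of these genes in the streak, had 1963 raw counts in WT against 422 in Cripto KO (ratio 0.205, 0.177 to 0.236), a fall of a size between those of Cer1 and Gsc. In serum/LIF, Eomes had 86 raw counts in WT and 27 in Cripto KO (ratio 0.354, 0.221 to 0.551).

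Other genes of the same territories were mixed. Of 14 node and axial mesendoderm genes, 4 were at least 2-fold lower (Pkd1l1, Otx2, Foxd4 and Foxj1) and 1 was higher (Fgf17), with a median log2 ratio of -0.58. Pkd1l1 had a ratio of 0.213 (0.186 to 0.244) and the homeobox gene Otx2 of 0.280 (0.249 to 0.314), whereas the Wnt antagonists Dkk1 and Frzb were at 0.877 (0.785 to 0.979) and 1.36 (1.22 to 1.51). Of 13 definitive endoderm and gut genes, 3 were lower (Trh, Cpm and Ihh) and 0 were higher, with a median of -0.39. Trh, which encodes a hormone precursor, had a ratio of 0.278 (0.250 to 0.308) and Cpm, a carboxypeptidase, of 0.469 (0.428 to 0.513). The serine protease Tmprss2 was at 0.661 (0.585 to 0.746). The epithelial keratin Krt8 held the same rank in both F/A libraries, which fixes its normalized ratio, and had 1280 cpm in WT and 1391 cpm in Cripto KO. The anterior visceral endoderm list, which shares genes with the lists above, had 5 lower (Fzd5, Amot, Otx2, Hesx1 and Lefty1) and 1 higher (Sfrp5) of 8, and a median of -1.77. Its Wnt receptor Fzd5 had a ratio of 0.152 (0.135 to 0.171) and Amot, a junction protein, of 0.280 (0.269 to 0.292).

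**Figure D4:**
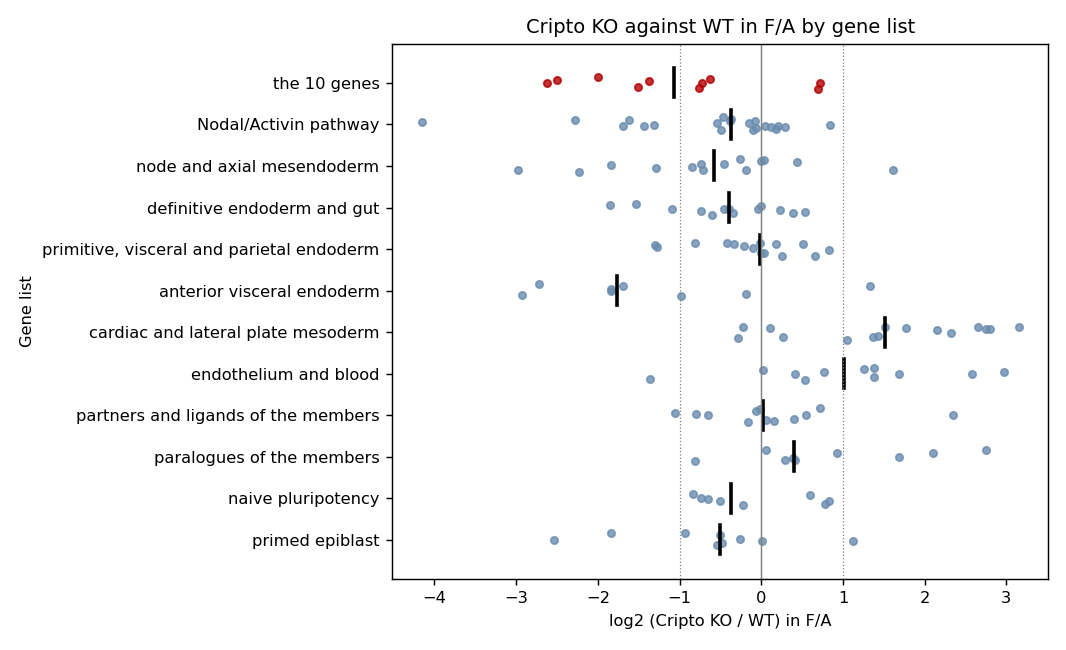
Log2 ratio of F/A Cripto KO to F/A WT for the genes of each list; points are genes with counts in both libraries, spread vertically for legibility, black bars are medians over all genes of the list that were kept, and dotted lines mark 2-fold. The median is -1.07 for the 10 genes, -1.77 for anterior visceral endoderm and 1.52 for cardiac and lateral plate mesoderm.

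Markers of other cell types that use these genes were read beside them. Of 17 primitive, visceral and parietal endoderm genes, 2 were at least 2-fold lower (Apob and Cubn) and 0 were higher without Cripto in F/A, with a median log2 ratio of -0.01, and their summed level was 2973 (WT) and 3239 cpm (Cripto KO) for F/A, and 1293 and 1406 cpm for serum/LIF. Of the markers taken as defining for that tissue, Afp had 0 raw counts in all 4 libraries, Apoa1 no more than 1, Ttr 7 (WT) and 14 (Cripto KO) in F/A, and Sox7 20 and 10. Other genes of the list were well above 0 in F/A. Pdgfra had 812 raw counts in WT and 1452 in Cripto KO (ratio 1.78, 1.61 to 1.97), the basement membrane collagen Col4a2 5315 and 4264 (0.791, 0.752 to 0.832), the collagen chaperone Serpinh1 9309 and 16064 (1.58, 1.53 to 1.62) and Dab2 609 and 590. Of 15 cardiac and lateral plate mesoderm genes, by contrast, 11 were at least 2-fold higher without Cripto and 0 were lower, with a median of 1.52. Their summed level in F/A was 193 cpm for WT and 462 cpm for Cripto KO, and in serum/LIF 47.8 and 33.3 cpm. Hand1 had a ratio of 8.88 (7.59 to 10.4), Hand2 of 6.96 (5.43 to 9.02) and the cardiac actin Actc1 of 2.68 (2.32 to 3.11), while Tbx20 was at 0.858 (0.752 to 0.977). The heart markers Nkx2-5 and Myl7 had 52 and 72 raw counts in WT against 138 and 212 in Cripto KO. The ratios of Gata4 and Gata6 lay on the same side of 1 as most of this list, and its part in their values was not tested.

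Of 12 endothelium and blood genes, 6 were at least 2-fold higher and 1 lower, with a median log2 ratio of 1.02 and a summed level of 440 cpm for WT and 332 cpm for Cripto KO in F/A. The lower gene was Flt1 (ratio 0.389, 0.359 to 0.421), the gene nearest in pattern to Sox17. The haematopoietic cofactor Lmo2 was at 2.39 (1.86 to 3.08), the apelin receptor gene Aplnr at 1.02 (0.947 to 1.09), and the endothelial markers Pecam1 and Cdh5 had 9 and 18 raw counts in WT against 54 and 24 in Cripto KO. Hhex, which endothelium also transcribes, fell, so that it moved against most of this list, whose part in its value was not tested.

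Most cofactors and ligands of the set stayed within 2-fold. Of 12 such genes, 1 was at least 2-fold higher (Cxcl12) and 1 lower (Zfpm2) without Cripto, with a median log2 ratio of 0.02. Cxcl12, the ligand of Cxcr4, had 90 raw counts in WT against 476 in Cripto KO (ratio 5.08, 3.97 to 6.55), on the other side of 1 from its receptor. Ssbp2, a partner of LIM-homeodomain complexes, had a ratio of 1.64 (1.42 to 1.90), and Zfpm1, the GATA cofactor known as FOG1, of 1.11 (0.974 to 1.27). Of 10 paralogues of the set, 3 were higher (Gata2, Gata5 and Hlx) and 0 were lower, with a median of 0.40. Gata3, the paralogue with the most reads in F/A, was at 1.04 (0.834 to 1.3), and Grem1 at 1.22 (0.802 to 1.85). Of 10 naive pluripotency genes 0 were 2-fold apart in either direction, with Tbx3 at 1.78 (1.5 to 2.11) and Klf5 at 0.601 (0.516 to 0.697). Few or no reads were left in F/A for Esrrb, with 13 raw counts in WT and 8 in Cripto KO, and for Nr0b1, with 0 in both. Of 9 primed epiblast genes 2 were lower (Fgf5 and Otx2) and 1 was higher (Sfrp2), and Fgf8 was at 0.838 (0.755 to 0.928).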

How the data were processed

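RNA of 4 cultures was sequenced, 1 library per condition. Per the labels and the study's methods, the authors aligned paired-end reads to mm9 (NCBIM37) with TopHat2 2.0.13, counted them per gene with HTSeq 0.6.1p1 and deposited raw counts. The authors also deposited a signal, the full quantile-normalized counts of genes passing a filter at 1 cpm. CASAVA is named in the submitters' processing notes. Quantile values recomputed from the raw counts equalled the deposited ones (largest difference 0). Columns were matched to samples by name.

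Log2 ratios used the normalized values with 0 replaced by 0.5. A gene was called at 2-fold. Intervals are 95% Clopper-Pearson intervals of raw counts, or Poisson intervals for levels, carried to each scale, with F/A Cripto KO counts halved. A library at 0 counts gave a bound against 3 counts (6 in F/A Cripto KO), and such a gene was called only where that bound passed 2-fold. The plan had set bounds up to the limit itself, but libraries with 1 to 3 counts were given as ratios with intervals. No fold was given with both libraries at or under the limit. The study's probabilities from simulated replicates were not computed. Symbols, coordinates and median transcript lengths came from Gencode on NCBIM37 (Ensembl 65), which named 15424 (99.8%) of the genes kept. Promoters came from RefSeq on GRCm38.p6. Genes of 11 further lists were named by a rule, the 2 with the largest log2 ratio of F/A Cripto KO to F/A WT and the 2 with the largest change in WT per list, among those with at least 200 raw counts, plus defining markers, Tdgf1 and genes the study names; 1 gene that the rule names is not reported here. Of 147 listed genes, 143 were found and 129 kept. The members and lists were chosen with earlier results of these data known. Alternatives used edgeR 4.0.16 and DESeq2 1.42.0 scaling factors in R 4.3.3. Scripts (Python 3.11.15, pandas 2.3.3, numpy 2.4.6, matplotlib 3.10.9, scipy 1.17.1) were tested on simulated data.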

Additional observations from a re-analysis of the deposited data

Results flagged for a closer look

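The log2 ratio of Cripto KO to WT had opposite signs in the 2 cultures, with counting intervals on opposite sides of 1, for Gata6 among the 10 genes, at 0.72 in F/A and -1.42 in serum/LIF. The serum/LIF value rests on 6 raw counts against 18. Other genes named above also had opposite signs, and the difference between cultures was not tested for any of them. Lower in F/A and higher in serum/LIF were the Nodal antagonists Lefty1, at -1.70 and 1.82, and Lefty2, at -1.31 and 1.57, with Trh at -1.85 and 0.48, Cpm at -1.09 and 0.43, Foxj1 at -1.29 and 0.72, and Slc39a8 at -0.68 and 1.93. Higher in F/A and lower in serum/LIF were Pecam1, at 2.58 and -0.41, Myl7 at 1.52 and -0.49, Tbx3 at 0.83 and -0.85, Krt19 at 0.20 and -1.20, and Myh7 at 0.15 and -1.67. Slc39a8 was named for its likeness to Foxa2, and Krt19 and Myh7 for theirs to Gata6, over these same libraries. Their opposite signs follow from that choice and are no separate result. The log2 change on moving to F/A likewise had opposite signs in the 2 genotypes for some named genes, also not tested. It was 0.95 in WT and -0.61 in Cripto KO for Otx2, 0.90 and -2.62 for Lefty1, 0.49 and -2.38 for Lefty2, 0.30 and -2.03 for Trh, -0.89 and 0.94 for Sfrp5, and -0.69 and 1.32 for Myl7.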

How the results depend on the processing

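The counts of genes past 2-fold were 10, 9, 5 and 3 in the 2 transitions, in Cripto KO against WT in F/A and in the same comparison in serum/LIF. Library totals, TMM factors, DESeq2 size factors, a filter at a mean of 50 raw counts, none at all and, added after seeing the data, centring on the median of a gene's transcript length class left each of them as it was; the filter settings could not change the values, because the authors normalized before filtering. At 3-fold the count in F/A was 3 and that in serum/LIF 1, and with 5 added to every value that in serum/LIF was 0. In F/A the direction held for 50 of 50 gene values under the alternatives, with shifts of at most 0.17 log2 units, and in serum/LIF for 32 of 40, with shifts of up to 2.01. The values that did not hold in serum/LIF were of Cxcr4 and Sox17. The main log2 ratio of Cxcr4 was 0, which has no direction to hold, and that of Sox17 was 0.13. In the transitions the direction held for 50 of 50 in each genotype, with shifts of up to 2.92 in WT and 3.24 in Cripto KO. The median difference of the transitions was -1.24, and between -1.06 and -1.22 otherwise. No paired analysis was possible because each condition has 1 library, and for the same reason no replicate could be left out. Low counts in serum/LIF limit every value that uses Lhx1, Cer1, Gsc, Foxa2, Foxa1, Sox17 or Gata6 there.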
